A study of Mus musculus with 3 samples.

Results

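Regulatory T cells and checkpoint receptors hold immune responses in check, and 9 of their genes were followed here in spleens that carried islet grafts. The genes were Foxp3, Il2ra, Ctla4, Icos, Pdcd1, Tnfrsf4, Tnfrsf18, Lag3 and Tigit, and the rule that collected their probes used names only. Every non-control probe carrying 1 of these names was taken, which gave 11 probes (3 for Icos and 1 for each other gene) of 55679 probes on the array. The array carried 34796 gene names, of which 22851 had a detected probe, that is, a probe well above background in at least 1 sample. All 9 genes were detected.

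The arrays addressed which transcripts of the spleen differ between the time of grafting and later days. Pancreatic islets were given to mice of the same strain, so that donor and recipient did not differ in tissue type. Sample 1 was spleen taken on day 0, directly after the operation, from male C57BL/6J mice made diabetic with streptozotocin (STZ), a toxin of beta cells, that received 25 islets in the spleen and 100 under the kidney capsule. Sample 2 was spleen from the same treatment on day 2. Sample 3 was spleen from day 139, after the kidney with the capsular graft had been taken out on day 100. The treatment protocol gives the capsular graft to every group, whereas the sample characteristics name it only for Sample 3. All 3 groups therefore shared the STZ injection and the splenic graft, and a spleen without them was not analysed here. Age, nephrectomy and time after STZ differed along with the day and cannot be told apart from it, and neither can blood glucose. The study describes glucose as normalized while the capsular graft was in place and as raised in some mice after its removal. No glucose values are given for the mice of the arrays. The methods give a single age range for all mice, whose upper end is shorter than the 139 days to Sample 3, and neither the age nor the number of mice is given for each array.

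Each condition was read on 1 array, so there is no replicate spread between spleens and the conditions could not be tested. A value below is the quantile normalized signal, a brightness without unit that compares 1 gene between samples and not 2 genes with each other. The error after ± is the scanner software's own estimate for the spot, which covers neither the labeling nor the difference between mice. On the log2 scale this error of a ratio was 0.20 to 0.25 for 8 of the genes and up to 0.40 for Tigit, the dimmest. From 50.4% to 54.4% of the probes were well above background in each sample, and no gene probe was saturated. A gene counted as past the ratio limit at a ratio of at least 1.5 or at most 0.66. It met both criteria when its Z-score was also at least 2 or at most -2. The Z-score sets a log2 ratio against the SD among the 1000 probes of closest mean signal, so it compares a probe with other probes and not with other mice.

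Foxp3 is the transcription factor that defines regulatory T cells and holds their gene program in place. These cells carry the high affinity receptor for interleukin 2, of which Il2ra encodes the alpha chain, and they depend on that cytokine from other T cells. The remaining genes encode surface receptors that are not confined to regulatory T cells. Icos, Tnfrsf4 (OX40) and Tnfrsf18 (GITR) are costimulatory receptors, whereas Ctla4, Pdcd1 (PD-1), Lag3 and Tigit restrain T cells once they are activated. In the spleen, Icos and Pdcd1 are also carried at high levels by follicular helper T cells, which assist B cells, and Lag3 and Tigit are found on some natural killer cells.

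The probes decide what each value can mean, and their target ends are shown for that reason. The sequences were those of the array's scanner files, 5′ to 3′, and positions were those of its annotation on mm9. All probes had 60 bases. Their last 30 bases are given in lower case, with capitals marking AATAAA, the signal that precedes the poly(A) tail of many transcripts.
Foxp3: tgcctagtagtgagcataaagtccctgtgt
Il2ra: gattgtgacctagaagtataagctaaaata
Icos: aacagccAATAAAtatgctttgtgagagaa
Tnfrsf4: tgcctggtggtgctcctAATAAAcatgcta
Tnfrsf18: cttgtacaagAATAAAtacttgtctagtaa
Ctla4: ggtgtggggtcaagggaacattagggaatg
Pdcd1: ccaacactggggtgttagaatctcctcatt
Lag3: ctgccttagaacatgggattcagccatttc
The motif AATAAA stood in 3 of the 11 probes, those of Icos, Tnfrsf4 and Tnfrsf18 shown here, and in 10.1% of all probes on the array. It was searched on the strand printed, and the match describes the letters only.

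Tigit was the dimmest of the genes, and its probe is printed whole because it ends in a stop codon, in capitals.
Tigit: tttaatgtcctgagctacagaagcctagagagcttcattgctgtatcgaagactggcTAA
Read from its first base, the Tigit probe held 20 codons, and the single stop was codon 20. The Tigit probe lay on chromosome 16 (43649114 to 43649173, minus strand). The Foxp3 probe lay on the X chromosome (7172301 to 7172360, plus strand) and the Il2ra probe on chromosome 2 (11614744 to 11614803, plus strand). Both were single probes, so an isoform that lacks the probed end would not be read.

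The checkpoint and costimulatory genes lie partly in clusters. The Ctla4 probe (60971801 to 60971860) and the Icos probe used here (61057105 to 61057164) were on the plus strand of chromosome 1, 85304 bases apart, and in the gene order of the RefSeq table for GRCm38.p6 the genes run Cd28, Ctla4, Icos with no other coding gene between. On chromosome 4 the Tnfrsf4 probe (155390639 to 155390698) and the Tnfrsf18 probe (155402941 to 155403000) were 12302 bases apart, and these genes are likewise direct neighbors. Lag3 is the coding gene next to Cd4. Its probe on chromosome 6 (124854570 to 124854866, minus strand) covered 297 bases of the genome with 60 bases of sequence, so it joins at least 2 separate genomic stretches. The Pdcd1 probe was on the minus strand of chromosome 1 (95935064 to 95935123). The array annotation used here does not state the exon or the untranslated region of any probe.

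Across the 3 samples, 7 of the genes had their highest signal on day 139, namely Ctla4, Icos, Pdcd1, Tnfrsf4, Tnfrsf18, Lag3 and Tigit. Foxp3 and Il2ra had theirs on day 2. The largest ratio belonged to Pdcd1, which met both criteria in Sample 3 over each earlier sample, and Lag3 met both in Sample 3 over Sample 2. Foxp3 was past the ratio limit on day 2 and stood at nearly the same signal on day 139. Il2ra was the gene of the 9 with the lowest ratio of day 139 over day 0.

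**Figure D1:**
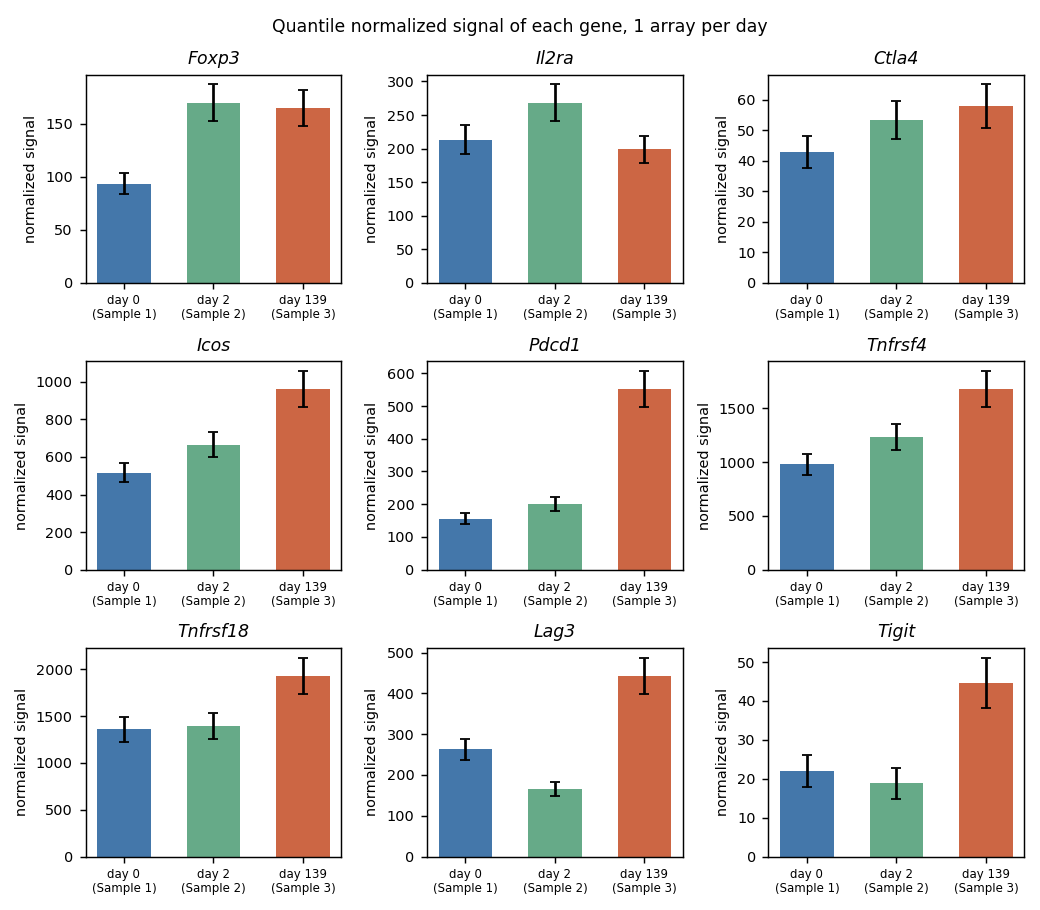
Quantile normalized signal (vertical axis, no unit, from 0) of each of the 9 genes in Samples 1, 2 and 3, with 1 array per day and error bars of the scanner software's estimate for the spot. Pdcd1 stood at 156, 200.5 and 551, Foxp3 at 93.7, 169.9 and 165, and Lag3 had its lowest signal, 166, on day 2.

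Foxp3 had a signal of 93.7 ± 9.93 on day 0, 169.9 ± 17.3 on day 2 and 165 ± 17.1 on day 139. The signal was thus low on day 0 and higher on both later days, which did not differ beyond their errors. The ratio of Sample 2 over Sample 1 was 1.81 (log2 ratio 0.86 ± 0.21), and that of Sample 3 over Sample 1 was 1.77 (0.82 ± 0.21). Both were past the ratio limit, but their Z-scores of 1.39 and 1.28 were below 2. Sample 3 over Sample 2 gave 0.973 (-0.04 ± 0.21). This ratio was above 1 with the normexp background correction, and 1.27 under spike-in scaling, which raised all genes of Sample 3. Relative to the median of all genes, Foxp3 was at -0.01 there with quantile normalization and with spike-in scaling. With that correction the ratio of day 2 over day 0 was 1.495, just short of the limit.

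Il2ra, whose product joins the beta chain and the common gamma chain to bind interleukin 2 tightly, had signals of 213 ± 21.5, 268 ± 27.1 and 199 ± 20.4. The gene was highest on day 2, and its day 0 and day 139 signals lay within the error of each other. Its ratio was 1.26 for Sample 2 over Sample 1 (log2 ratio 0.33 ± 0.21), 0.934 for Sample 3 over Sample 1 (-0.10 ± 0.21) and 0.741 for Sample 3 over Sample 2 (-0.43 ± 0.21). None was past the ratio limit. The second of these turned to 1.20 when the arrays were scaled by their spike-in controls. That scaling moved the median of all genes from -0.00 to 0.36 on the log2 scale in Sample 3 over Sample 1, and from -0.03 to 0.36 in Sample 3 over Sample 2, so it raised every ratio of Sample 3. Relative to the median of all genes, Il2ra in Sample 3 over Sample 1 was at -0.09 either way.

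The costimulatory receptors had their lowest signals on day 0 and their highest on day 139. Icos had 517 ± 51.8 on day 0, 666 ± 66.7 on day 2 and 960.0 ± 96.1 on day 139. The day 139 signal lay above both earlier ones by more than the errors. Its ratio was 1.29 for Sample 2 over Sample 1 (0.37 ± 0.20), 1.86 for Sample 3 over Sample 1 (0.89 ± 0.20) and 1.44 for Sample 3 over Sample 2 (0.53 ± 0.20). A second Icos probe on the same gene (61055103 to 61055162 on chromosome 1) gave log2 ratios of 0.41, 1.01 and 0.60 for the same comparisons, so both probes moved alike. The third Icos probe was not well above background on any array and gave no ratio.

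Tnfrsf4 had signals of 981 ± 98.1, 1232 ± 123 and 1676 ± 168. Day 139 was past the ratio limit against day 0 (ratio 1.71, log2 ratio 0.77 ± 0.20, Z-score 1.38). Its ratios were 1.26 for Sample 2 over Sample 1 and 1.36 for Sample 3 over Sample 2. Tnfrsf18, its neighbor on the chromosome, had 1358 ± 136, 1394 ± 139 and 1926 ± 193. Day 0 and day 2 of Tnfrsf18 were within the error of each other, at a ratio of 1.03. Its ratio for Sample 3 over Sample 1 was 1.42 and stayed below the limit, with 0.50 ± 0.20 on the log2 scale. On day 2 over day 0 the log2 ratios of these neighbors were 0.33 ± 0.20 and 0.04 ± 0.20, a gap that the combined errors cover in large part.

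Among the inhibitory receptors, Pdcd1 had the largest ratios. PD-1, the receptor it encodes, appears on T cells after activation and dampens signals of the T cell receptor. Its signal was 156 ± 15.9 on day 0, 200.5 ± 20.3 on day 2 and 551 ± 55.2 on day 139. Day 139 thus stood far above both early days, and the early days differed by little more than their errors. The ratio of Sample 3 over Sample 1 was 3.53 (1.82 ± 0.21 on the log2 scale, Z-score 2.98). Sample 3 over Sample 2 gave 2.75 (1.46 ± 0.21, Z-score 2.32). Sample 2 over Sample 1 gave 1.29. Under 12 other settings the first ratio ran from 2.73 to 4.55 and met both criteria in each, while the second ran from 2.24 to 3.63 and met both in 10 of the 12.

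Lag3 binds major histocompatibility complex class II in competition with Cd4. It had 263 ± 26.5 on day 0, 166 ± 16.9 on day 2 and 442 ± 44.4 on day 139, so that day 2 was its lowest day and day 139 its highest. The ratio of Sample 2 over Sample 1 was 0.632 (-0.66 ± 0.21, Z-score -1.11), past the ratio limit downward. Sample 3 over Sample 2 gave 2.66 (1.41 ± 0.21, Z-score 2.16), which met both criteria, and Sample 3 over Sample 1 gave 1.68 (0.75 ± 0.21, Z-score 1.30). The second of these met both criteria in 11 of 12 other settings, with ratios from 2.20 to 3.51. With normexp the ratio of day 2 over day 0 was 0.710 and no longer past the limit.

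Tigit, which competes with the activating receptor Cd226 for the ligand Pvr, was near the detection limit. Its signal was 22.0 ± 4.03 on day 0, 18.9 ± 4.01 on day 2 and 44.6 ± 6.38 on day 139, against the lowest signals called well above background of 12.9, 14.0 and 19.3. The early days lay within the error of each other and day 139 was higher. Its ratio was 2.03 for Sample 3 over Sample 1 (1.02 ± 0.34) and 2.37 for Sample 3 over Sample 2 (1.24 ± 0.37). Neither Z-score (1.01 and 1.56) reached 2. The ratios were 1.32 and 1.26 with the normexp correction, and the ratio of Sample 2 over Sample 1, 0.856, turned to 1.04.

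Ctla4, whose product takes Cd80 and Cd86 away from the costimulatory receptor Cd28, had 42.9 ± 5.24, 53.5 ± 6.17 and 57.8 ± 7.22 in Samples 1, 2 and 3. Neighboring days overlapped within their errors, and Ctla4 was the inhibitory receptor with the smallest ratios of day 139 over either earlier day. Its ratio was 1.25 for Sample 2 over Sample 1, 1.35 for Sample 3 over Sample 1 (log2 ratio 0.43 ± 0.25) and 1.08 for Sample 3 over Sample 2. The values of the dim genes, Ctla4, Tigit and Foxp3 on day 0, rest on less signal than the rest. Repeated spots of probes with signals of 15 to 100 had a median SD of 0.17 to 0.21 on the log2 scale, against 0.07 to 0.08 at signals of 100 to 1000.

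Counted together, 7 of the 9 genes were above a ratio of 1 in Sample 2 over Sample 1, where 52.8% of all genes were, and their median log2 ratio was 0.33 against 0.02 over all genes. Foxp3 was past the ratio limit upward (1 of 9, against 9.94% of all genes) and Lag3 downward (1 of 9, against 9.87%). Both criteria were met by 0 of 9 in either direction, against 2.11% of all genes upward and 2.76% downward. In Sample 3 over Sample 1, 8 of the 9 were above 1, against 49.6% of all genes, with a median of 0.77 against -0.00. Past the ratio limit upward were 6 of 9 (Foxp3, Icos, Pdcd1, Tnfrsf4, Lag3 and Tigit), against 13.6% of all genes, and downward 0 of 9, against 13.7%. Both criteria were met upward by Pdcd1 alone (1 of 9, against 3.05%) and downward by 0 of 9, against 2.34%.

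In Sample 3 over Sample 2, 7 of the 9 genes were above 1, against 47.5% of all genes, and their median was 0.47 against -0.03. Past the ratio limit upward were Pdcd1, Lag3 and Tigit (3 of 9, against 12.8% of all genes) and downward 0 of 9, against 13.5%. Pdcd1 and Lag3 met both criteria upward (2 of 9, against 2.98%), and 0 of 9 met them downward, against 1.77%. The comparisons share their arrays, so a low signal of Lag3 in Sample 2 enters its ratios on either side. Under spike-in scaling the number past the ratio limit upward was 6 in place of 3, while the number meeting both criteria was 2 as before.

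**Figure D2:**
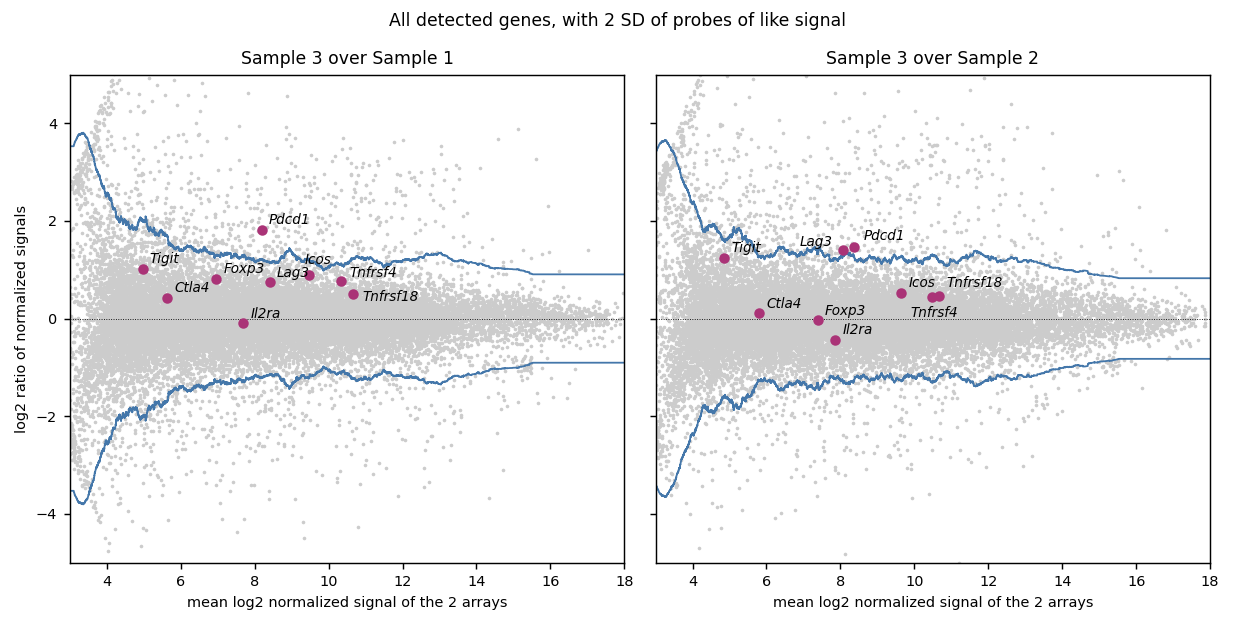
Log2 ratio (vertical axis) against mean log2 normalized signal (horizontal axis) of all detected genes in gray and the 9 genes in color, for Sample 3 over Sample 1 and Sample 3 over Sample 2. Lines mark 2 SD of the 1000 probes of nearest signal, points outside the axis ranges are not drawn, and only Pdcd1 (1.82 and 1.46) and Lag3 (1.41, right panel) lie beyond the lines among the 9 genes.

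All of these genes are carried by T cells, some of them by other cells too, and the T cell markers moved as well. Of 21 pan T cell markers, among them Cd3e of the T cell receptor complex, 19 were above a ratio of 1 in Sample 2 over Sample 1 (median log2 ratio 0.32), 20 in Sample 3 over Sample 1 (median 0.78) and 20 in Sample 3 over Sample 2 (median 0.50). The highest of them in Sample 3 over Sample 1 was Cd247, the zeta chain of that complex (1.60), and the lowest was Il7r, the receptor of interleukin 7 (-0.11). Cd4 had signals of 1455, 1949 and 2910.0 in the 3 samples. Of 21 markers, 2, 17 and 6 were past the ratio limit upward in the 3 comparisons, against 9.94%, 13.6% and 12.8% of all genes. A sum of signals over a list is weighted toward its brightest probes. The summed signal of the T cell markers was 29212, 38618 and 53381. Its part in the ratios of the 9 genes was not tested, and in whole spleen a change in the number of cells of a type and a change in RNA per cell cannot be told apart.

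Set beside these markers, most of the 9 genes had ratios inside the range of the T cell list. On day 2 over day 0, Il2ra, Ctla4, Icos, Pdcd1 and Tnfrsf4 had log2 ratios of 0.32 to 0.37, each within 0.05 of the T cell median. Foxp3 was higher than all 21 T cell markers, by 0.54 over their median. The next was Bcl11b, a transcription factor of T cells, at 0.66 ± 0.21, and its error overlapped that of Foxp3 (0.86 ± 0.21). Against Cd4 the Foxp3 ratio was higher by 0.44 ± 0.29 on the log2 scale. Lag3 lay on the other side, 0.98 below the T cell median, with 1 of the 21 markers lower.

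On day 139 over day 0, Foxp3 (0.04 above the T cell median), Icos (0.11 above), Tnfrsf4 and Lag3 were near the middle of the T cell list. Pdcd1 was higher than all 21 markers, by 1.04 over their median and by 0.82 ± 0.29 over Cd4. Its error (1.82 ± 0.21) overlapped that of the next, Cd247 (1.60 ± 0.25). Il2ra was 0.88 below that median, and only 1 of the 21 markers was lower. Against Cd4, Il2ra was lower by a log2 difference of -1.10 ± 0.29. The Foxp3 difference from Cd4 was -0.18 ± 0.30, within its error.

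In Sample 3 over Sample 2 the split was wider. Pdcd1, Lag3 and Tigit each exceeded 20 of the 21 T cell markers, by 0.96, 0.91 and 0.75 over the median, and Cd247 alone was higher than they were. Il2ra was lower than all 21, at 0.93 below the median, and its error just met that of the lowest marker, Lat (-0.03 ± 0.20). Foxp3 was 0.54 below that median and level with Lat within its error of 0.21. With Cd4 as the base, Pdcd1 was higher by 0.88 ± 0.29, Lag3 by 0.83 ± 0.29 and Tigit by 0.66 ± 0.42, whereas Foxp3 differed by -0.62 ± 0.29 and Il2ra by -1.01 ± 0.29. These are differences between ratios on the same pair of arrays, so a scaling of a whole array does not enter them.

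**Figure D3:**
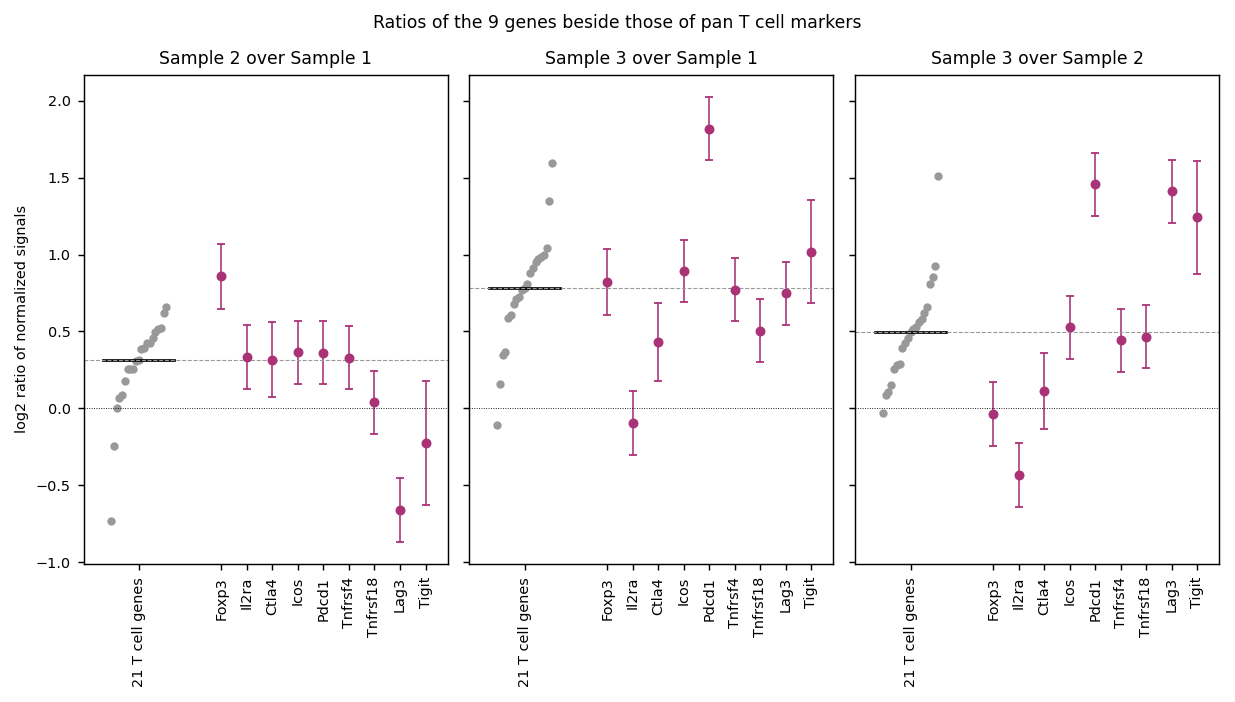
Log2 ratios (vertical axis) of the 21 pan T cell markers (gray points, in order of value, with their median as a black bar and dashed line) and of the 9 genes (colored points with the scanner software's error) in each comparison. Foxp3 lies above the T cell markers on day 2 and Pdcd1 above them in Sample 3 over Sample 1. Il2ra lies below them in Sample 3 over Sample 2, where Foxp3 (-0.04) is level with the lowest marker (-0.03). In each case the error overlaps that of the nearest marker, which is not drawn.

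The ligands of these receptors, most of them on antigen-presenting cells, did not follow the same course. Of 11 ligand genes, 9 were detected. Il2 and Tnfsf4, the ligands of the interleukin 2 receptor and OX40, were not well above background in any sample. All 9 detected ligands were lower on day 2 than on day 0, with a median log2 ratio of -0.35. In Sample 3 over Sample 1, 5 were higher and 4 lower (median 0.21), and in Sample 3 over Sample 2, 6 were higher and 3 lower (median 0.40).

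The ligands of PD-1 had their highest signals on day 139, as Pdcd1 did. Cd274 (PD-L1) had 490.1, 412 and 922 in Samples 1, 2 and 3, and Pdcd1lg2 (PD-L2) had 164, 131 and 287. Over day 0 their log2 ratios were 0.91 and 0.80, and over day 2 they were 1.16 and 1.13, past the ratio limit in each, with Z-scores under 2. In the same comparisons the B cell markers had medians of 1.13 and 1.09, and the pan T cell markers 0.78 and 0.50. The part of these cells in the ligand signals was not tested. Icosl, the ligand of Icos, had 2350.0, 2252 and 3266, with a log2 ratio of 0.48 over Sample 1. Tnfsf18, the ligand of GITR, had 21.1 and 32.6 in Samples 1 and 3 and was not well above background in Sample 2 (5.61), so that Sample 3 was at least 2.32-fold higher than Sample 2.

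The ligands of Tigit and Ctla4 went other ways. Pvr, which binds Tigit, had 258, 149 and 124 in the 3 samples, a log2 ratio of -1.05 in Sample 3 over Sample 1. Pvrl2 (now Nectin2), a weaker Tigit ligand, had 1106, 819 and 575, a log2 ratio of -0.94. Both were past the ratio limit downward, in the comparison in which Tigit itself was past it upward. Tigit was near the detection limit, however, and with normexp its ratio there was 1.32, not past the limit. Cd80 and Cd86, which Ctla4 and Cd28 share, parted: Cd80 had 1253, 983 and 873, whereas Cd86 had 2177, 1911 and 2524. Fgl1, described as a Lag3 ligand, had 85.4, 67.1 and 79.7.

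The signaling partners of the receptors moved less. All 14 were detected, with medians of 0.01, 0.18 and 0.27 in the 3 comparisons, and none met both criteria. Il2rg, the common gamma chain, had 1094, 1336 and 1811, and Il2rb, the beta chain, 1562, 1838 and 1591. The beta chain had its highest signal on day 2, as Il2ra did, but by little more than the error. Its log2 ratio was 0.23 ± 0.20 for Sample 2 over Sample 1 and -0.21 ± 0.20 for Sample 3 over Sample 2. In Sample 3 over Sample 1, the highest log2 ratio was that of Cd96 (0.88) and the lowest that of Cd226 (-0.46), both receptors that share the ligand Pvr with Tigit.

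Of 20 other genes linked to regulatory T cells, 19 were detected, and Gpr83 was not. In Sample 3 over Sample 1, 11 of the 19 were higher and 8 lower, with a median of 0.26. Past the ratio limit upward were 6, against 13.6% of all genes, and downward 2, against 13.7%. These 2 were Itgae (27.8 and 16.1 in Samples 1 and 3) and Ccr8 (30.5 and 16.6). Neither was well above background in Sample 3, so they were at least 1.44-fold and 1.58-fold lower there. Ikzf2 (Helios), a transcription factor of many regulatory T cells, was the highest, at 68.6, 84.9 and 207 in the 3 samples, with a log2 ratio of 1.59 (Z-score 2.40). Irf4, which acts in activated T cells and plasma cells, also met both criteria (475, 436 and 1139, log2 ratio 1.26, Z-score 2.15). Among the genes well above background on both arrays, Lrrc32 was the lowest, with 1594, 1502 and 1110.0 in the 3 samples. Its product displays latent transforming growth factor beta on regulatory T cells and other cells. On day 2 over day 0 the list had a median of -0.12, with 7 genes higher and 12 lower, unlike Foxp3. Ikzf2 there had a log2 ratio of 0.31, near the T cell median.

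Among 15 other checkpoint genes, 13 were detected, and their medians were -0.26, -0.04 and 0.27 in the 3 comparisons. Tox, a nuclear factor of lastingly stimulated T cells, was the highest in Sample 3 over Sample 1, with signals of 135, 184 and 383, a log2 ratio of 1.5 (Z-score 2.42). It was the only gene of the list to meet both criteria upward there. The lowest was Cd244 (2B4), with 3593, 1810 and 2177, and it met both criteria downward in Sample 2 over Sample 1 (-0.99, Z-score -2.42). Btla, a receptor of B and T cells, had 2660, 1982 and 4025.

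Genes linked to follicular helper T cells, which also carry Icos and Pdcd1, were mostly higher on day 139. Not all genes of this list are confined to these cells. All 9 were detected, and 7 were higher in Sample 3 than in Sample 1 (median 0.77, beside 0.78 for pan T cell and 1.13 for B cell markers). In Sample 3 over Sample 2, 8 were higher (median 1.15, beside 0.50 and 1.09), whereas on day 2 over day 0 the median was -0.16. Il21, the cytokine by which these cells act on B cells, was not well above background in Samples 1 and 2 (3.32 and 9.76) and had 137 in Sample 3, at least 10.6-fold higher than in Sample 1 and at least 9.75-fold higher than in Sample 2. Ascl2, a transcription factor of the same cells, had 29.4, 38.0 and 142, with a log2 ratio of 2.28 (Z-score 3.22) over Sample 1. Cxcr5, the receptor that leads cells into follicles and is also carried by B cells, had 1353, 1214 and 2908. Maf was the lowest, at -0.69 in Sample 3 over Sample 1.

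**Figure D4:**
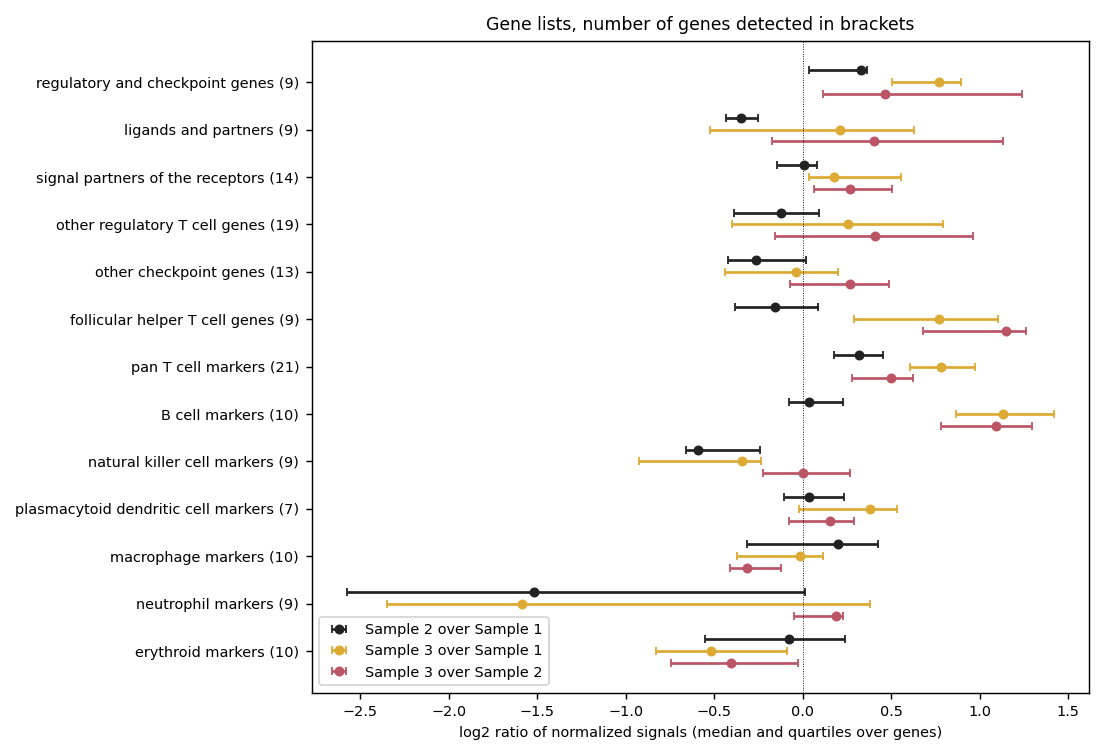
Median (points) and quartiles (bars) of the log2 ratios of measured normalized signals (horizontal axis) for each gene list, with the number of detected genes in brackets, in the 3 comparisons. The 9 genes have medians of 0.33, 0.77 and 0.47 beside 0.32, 0.78 and 0.50 for pan T cell markers, and the B cell markers reach 1.13 and 1.09 in Sample 3 over Samples 1 and 2.

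The markers of other spleen cells moved between the same samples. The B cell markers had medians of 0.04, 1.13 and 1.09 in the 3 comparisons. All 10 were higher in Sample 3 than in each earlier sample (from 0.23 for Cr2 to 1.94 for Blk over Sample 1). Past the ratio limit upward were 8 of the 10 in Sample 3 over each earlier sample, against 13.6% and 12.8% of all genes. The summed signal of the B cell markers was 55218, 55113 and 105958. Natural killer cell markers, of cells that can carry Lag3 and Tigit, had medians of -0.59, -0.35 and 0.00, with 8 of 9 lower on day 2 than on day 0 and a summed signal of 15044, 10615 and 9413. Their defining gene Ncr1 had 114, 72.3 and 90.0, and the list ran from Gzmb (-1.90) to Eomes (0.33) in Sample 3 over Sample 1. Lag3 was lower on day 2 together with this list, but on day 139 it was higher while 7 of 9 of these markers were below day 0. The part of these cells in the values of Lag3, Tigit, Pdcd1 and Icos was not tested.

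Plasmacytoid dendritic cell markers, which belong to another possible source of Lag3, had medians of 0.04, 0.38 and 0.16, with 7 of 8 detected. Their defining gene Siglech had a log2 ratio of -0.23 in Sample 3 over Sample 1. The list ran from Klk1 (-0.55) to Pacsin1 (0.71), and its summed signal was 105880, 104499 and 110706. Siglech alone had 76280, 72623 and 64935 of these sums. Of the 9 neutrophil markers, 6 were lower and 3 higher on each later day than on day 0, with medians of -1.52 and -1.59. Their summed signal was 226591, 75993 and 87646, of which S100a9 alone had 147009, 51357 and 58589. The list ran from Mmp8 (-4.49) to Camp (0.72) in Sample 3 over Sample 1. Macrophage markers had medians of 0.20, -0.01 and -0.31 and ran from Marco (-1.28) to Emr1 (0.65). Erythroid markers had -0.08, -0.52 and -0.40, with Rhag lowest (-1.14). Their highest genes in Sample 3 over Sample 1 were the globin genes Hba-a1 and Hbb-b1, each with the same normalized signal on both arrays, as quantile normalization gives to probes of equal rank. The beta cell markers, which would mark the graft, were detected for 6 of 8 genes. Their medians were 1.87, -0.60 and -2.72 in the 3 comparisons, and 6 of 6 were lower in Sample 3 over Sample 2. The last median was -2.51 with the genes not well above background in Sample 3 set at their bound. In Sample 3 over Sample 1, the genes well above background on both arrays ran from Ins1 (-1.02) to Chgb (0.39). G6pc2 was not well above background in Sample 3, where its signal was at least 2.07-fold lower than in Sample 1.

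The course of Foxp3 over the 3 days was compared with that of 19804 genes well above background on all 3 arrays. The likeness was measured as the root mean square difference of log2 signals, each centered on its own mean over the 3 samples. The 5 closest were a probe for a noncoding region of chromosome 14 (0.0069), Rarb (0.011), Cldnd2 (0.011), a transcript without a gene symbol (0.013) and AI836003 (0.016). All 5 were dim, with signals of 13.6 to 41.6 in Sample 1. At signals of 15 to 100 repeated spots had a median SD of 0.17 to 0.21, so distances this small do not rank genes. With 3 points per gene a close match is common, and 162 genes lay within 0.1. Of the other 8 genes described here, Ctla4 was nearest to Foxp3 (0.23, rank 1347), followed by Tnfrsf4 (0.24) and Icos (0.25), and Lag3 was farthest (0.70).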

How the data were processed

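Spleen RNA was hybridized to 3 one-color Agilent arrays, 1 per condition. For each array the authors deposited a scanner file of linear spot intensities, with background already subtracted and spatial trends corrected, and for the series 1 table of quantile normalized intensity values. The file headers name Feature Extraction 10.7.1.1, while the methods name 9.5.1.1. The labels and the paper also name different RNA and labeling kits.

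From the processed intensities, control and outlier spots were left out and the spots of a probe averaged. Quantile normalization over the 3 arrays followed, for 55679 probes. Values under 1 were set to 1 before log2 was taken. These values were within 1% of the deposited table for at least 99.7% of the probes. Detection required most spots of a probe to be well above background on 1 or more arrays, which left 32108 probes. The brightest detected probe stood for a gene. The Z-score and ratio limits were those of the study, whose methods leave the Z-score formula unstated. No p-value was computed, and the number of arrays limits the precision. Where a probe was not well above background on 1 array, a bound was given against the higher of its own signal and the lowest signal well above background there.

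The genes and lists were chosen with earlier results of these data known. Named are all 9 genes, the detected ligands, the highest and lowest gene of each other list in Sample 3 over Sample 1 among those detected on both arrays, and the 5 genes most like Foxp3. Cd3e, Cd4, Bcl11b, Il2rb, Il2rg, Irf4, Btla, Lat, Hbb-b1, Il21, Cxcr5, Ncr1, Siglech and Gpr83 were named after their values were seen. So were Itgae, Ccr8, G6pc2 and S100a9. Of 161 list symbols, 153 were symbols of the RefSeq table for GRCm38.p6 and 7 were synonyms in it. The calls were tested on simulated data, which had larger changes than most ratios here and the same noise for every probe. That check does not gauge the calls on these arrays. The alternatives were the deposited values, scaling to 7 spike-in controls or to the 75th percentile, normexp with an offset of 50 from limma 3.58.1 (R 4.3.3), outlier spots kept, detection on all 3 arrays, no detection filter, the median over probes, a Z-score from 250 probes, from a scaled median absolute deviation or from 1 SD of all probes, and ratio limits of 2 and 0.5. Python 3.11.15, numpy 2.4.6, pandas 2.3.3 and matplotlib 3.10.9 were used.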

Additional observations from a re-analysis of the deposited data

How the results depend on the processing

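Under 12 alternative settings, 115 of 126 counts of the 9 genes stayed within 1.5 times the reported count and 11 moved. Of 24 medians, 22 stayed within the error and 2 moved. Of 216 single ratios, 24 moved by more than the scanner software's error. With the normexp background correction, 0 genes were past the ratio limit upward and 0 downward in Sample 2 over Sample 1, and 1 met both criteria in Sample 3 over Sample 2. With a scaled median absolute deviation, both criteria were met upward by 1 gene (Foxp3) in Sample 2 over Sample 1 and by 3 (Pdcd1, Icos and Tnfrsf4) in Sample 3 over Sample 1. With ratio limits of 2 and 0.5, 0 genes were past them in either direction in Sample 2 over Sample 1, and 2 upward in Sample 3 over Sample 1. With spike-in scaling, 3 met both criteria and the median was 1.15 in Sample 3 over Sample 1, and 6 were past the ratio limit upward with a median of 0.85 in Sample 3 over Sample 2. With 1 SD over all probes, 0 met both criteria in Sample 3 over Sample 2. Tigit met both criteria in Sample 3 over Sample 2 when detection on all 3 arrays was required and with the median absolute deviation. Directions changed for Foxp3 in Sample 3 over Sample 2 (normexp and spike-in scaling) and for Il2ra in Sample 3 over Sample 1 (spike-in scaling). They also changed for Tigit in Sample 2 over Sample 1 (normexp), and for no other ratio among the 8 settings that alter values or probe choice. The cause of these shifts was not tested. Of these 8, the detection settings left every ratio of the 9 genes unchanged, and the median over probes changed Icos only. The deposited values and the kept outlier spots changed the ratios very little. The counts of settings given for Pdcd1 and Lag3 include these near repeats. No replicate could be left out, and the dim signals of Tigit and Ctla4 limit what their ratios show. No paired analysis was possible because each condition has 1 array.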
